A study of Mus musculus with 6 samples.

Results

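The 43 genes described here encode the channels, pumps, exchangers and kinase subunits through which cells admit, store, release and read calcium. They were taken by gene symbol from a list set by function, which was chosen with earlier results of these data known. Each of the 43 was present among the 24421 genes of the deposited count table. RNA sequencing compared 3 *Nhe6*-knockout cultures with 3 wildtype cultures of primary endothelial cells from the stria vascularis, the vascularised epithelium of the lateral cochlear wall. According to the study's methods, the tissue put into culture also included the spiral ligament. The knockout mice carried a targeted germline disruption. Tissue of postnatal day 10 to 12 was used, the background is labelled C57BL/6N for every sample, no culture received a treatment, and each culture pooled cells of several mice that had been purified by fluorescence-activated sorting. The study's methods name the background C57bl6/j instead.

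Cytosolic calcium is kept far below its level outside the cell and in the endoplasmic reticulum. It enters through voltage-gated channels, TRP channels and the store-operated Stim and Orai pair, leaves the reticulum through IP3 and ryanodine receptors, and is removed by SERCA and plasma membrane pumps and by sodium-calcium exchange. Calcium bound to calmodulin activates CaM kinase II. In endothelial cells, calcium entry and release are known to act on nitric oxide production, contraction and junction opening, and such cells are usually described as relying on IP3 receptors and store-operated entry more than on voltage-gated channels.

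The libraries held 25587097 to 29126232 reads on genes. Wildtype replicate 2 stood apart from the other 5 libraries: it lay at 106 on the first principal component and the others between −28.5 and −6.52. It also held 16275 normalized counts of the smooth muscle gene *Acta2*, against 29.3 to 1204 in the others. *Nhe6*-knockout replicates 1 and 2 were closer to each other (chi-square per gene 5.10) than any other pair of one genotype (96.3 to 427), although they differed by more than sampling noise. Of 15 endothelial markers, *Cldn5* and *Robo4* had no read. *Tie1*, *Pecam1*, *Erg* and *Vwf* had at most 2, 8, 15 and 25 reads in any library. Most counts were those of *Emcn*, *Eng*, *Cdh5* and *Cd34*. *Emcn* had 410 normalized counts in wildtype replicate 2, against 13413 and 14730 in wildtype replicates 1 and 3. *Cdh5* fell from 3726 ± 1363 in wildtype to 210 ± 27.9 in knockout cultures (SD, n = 3, adjusted p = 0.0133). All 12 fibroblast markers passed the filter. Their summed normalized counts were 268744 to 401501 in wildtype and 281922 to 298920 in knockout cultures. Those of the 15 endothelial markers were 15990 to 23651 and 16883 to 25945. The defining markers therefore bear out the endothelial label only in part, and fibroblast markers held far more counts. Summed counts of 16 cell cycle genes were 2404 to 3906 in the wildtype and 8660 to 16284 in the knockout cultures. Since these are bulk cultures, fewer cells of a type and less RNA per cell cannot be told apart. Labels do not say whether cultures of a genotype came from separate isolations, so p-values measure the spread between these samples, which may be technical.

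Levels were compared between genes per length, as TPM (counts per length of exon, scaled to the same total in each library). The summed level of the 43 genes was 1192 ± 119 TPM (SD, n = 3) in wildtype and 1100 ± 19.8 TPM (SD, n = 3) in *Nhe6*-knockout cultures. *Atp2a2*, the SERCA pump found in most tissues, alone made up 30.2% of the summed mean level, and the 8 highest genes 72.1%. It was followed by *Trpm7*, a channel with a kinase domain, at a mean of 99.4 TPM over the 6 cultures, *Orai3* at 87.2, *Atp2b1* at 83.3, *Stim1* at 70.4 and *Cacnb3* at 51.3 TPM. Within 18 genes the mean level was at least 10 TPM, within 14 it lay from 1 to 10, and within 11 it was under 1 TPM. *Cacna2d4* had no read in any library, which allows up to 3 reads per library, and *Ryr1*, *Trpc4* and *Trpc6* had at most 5, 10 and 7 reads.

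Apart from *Slc8a1*, *Trdn*, *Jph2* and *Atp2c1*, the 43 genes were sorted into 11 families. Of these families, 8 had the same member at the highest level in all 6 cultures. *Cacna1g* led the channel pores, *Cacna2d1* the alpha2delta subunits, *Cacnb3* the beta subunits, *Atp2a2* the SERCA pumps, *Atp2b1* the plasma membrane pumps, *Stim1* the calcium sensors, *Orai3* the store-operated pores and *Trpm7* the 7 TRP channels listed. *Trpm3*, a TRP channel outside the 43 genes, stood above *Trpm7* in 3 cultures, at 160.0, 101.0 and 128.0 TPM against 120.0, 98.9 and 101.0 in wildtype replicate 3 and knockout replicates 2 and 3. *Pkd2*, a further cation entry channel outside the 43, had a mean of 171 TPM over the 6 cultures, against 99.4 for *Trpm7*. With the longest transcript as gene length, *Cacna2d3* exceeded *Cacna2d1* in 2 libraries and the other 7 families kept their leader. Among ryanodine receptors, *Ryr3* led in the 3 wildtype cultures and *Ryr2* in the 3 knockout cultures. Both were under 1 TPM in every culture, and neither passed the edgeR test given below. *Itpr3* led the IP3 receptors in 4 cultures and *Itpr2* in 2, and these counts were 3 and 3 with the longest transcript. *Camk2d* led the CaM kinase II subunits in 4 cultures and *Camk2g* in 2, but *Camk2d* led in all 6 with the longest transcript, so their order depends on the length chosen.

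**Figure D1:**
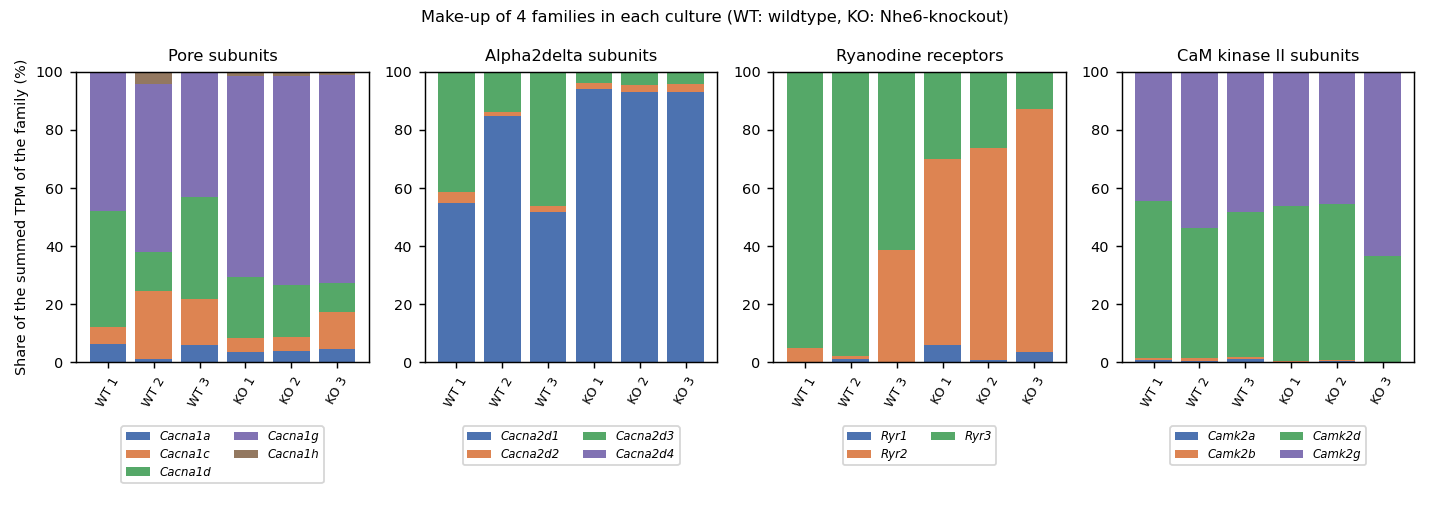
Share of each member in the summed TPM of the family members among the 43 genes (percent) in each of the 3 wildtype (WT) and 3 *Nhe6*-knockout (KO) cultures. The *Cacna2d3* share is 13.7% to 46.3% in wildtype and 3.75% to 4.59% in knockout cultures. The leading ryanodine receptor is *Ryr3* in wildtype and *Ryr2* in knockout cultures, both under 1 TPM in every culture.

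Of the 43 genes, 38 passed the filter on low counts and were tested. *Cacna2d4*, *Ryr1*, *Atp2a3*, *Trpc4* and *Trpc6* did not pass. *Atp2a3*, the SERCA pump of blood cells and some endothelium, had 13, 14 and 1 reads in wildtype and 4, 2 and 4 reads in knockout cultures, and the 10 reads of *Trpc4* were all in wildtype replicate 2. *Camk2a* was the 1 tested gene with fewer than 10 reads in every library of a genotype. It passed the filter only through its wildtype counts, so its lower knockout counts are no independent support. It is included in the shares of lower genes at an unadjusted p under 0.05, by DESeq2 and by non-overlap. No calcium gene passed an adjusted p of 0.05 in edgeR's quasi-likelihood test, in which 0.0668% of all 13479 genes tested passed in either direction, and none passed with limma-voom. At an unadjusted p under 0.05, 9 of the 38 (23.7%) were lower in *Nhe6*-knockout cultures, against 5.71% of all genes tested. Only *Jph2* (2.63%) was higher, against 6.14%. DESeq2 gave an adjusted p to 38 calcium genes, *Atp2a3* included and *Cacna1h* not, and called 6 of them (15.8%) lower against 1.48% of all genes. It called none higher, against 2.51%.

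The 6 genes that DESeq2 called lower were *Cacna2d3*, *Ryr3*, *Camk2a*, *Camk2b*, *Camk2d* and *Trdn*. Every knockout culture lay below every wildtype culture in 8 genes (21.1%, against 9.57% of all genes tested) and above in 2, *Ryr2* and *Jph2* (5.26%, against 10.3%). The median log2 fold change of the 38 genes was −0.21, beside −0.02 over all genes tested. Of the 38, 27 lay below 0 and 11 above, where 51.9% of all genes tested lay below 0. Differences were larger in size than over all genes, as 60.5% of the calcium genes and 76.8% of all genes lay within 0.5 of 0 on the log2 scale. Since the list was chosen with earlier results of these data known, the shares given here and above do not test calcium genes as a group. Without wildtype replicate 2, edgeR called *Cacna2d3* and *Trdn* lower (5.26%, against 1.26% of all genes) and *Cacna1g* and *Cacna1h* higher (5.26%, against 1.62%). The cell cycle sums given above separated the same groups of cultures, and their part in these differences was not tested.

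**Figure D2:**
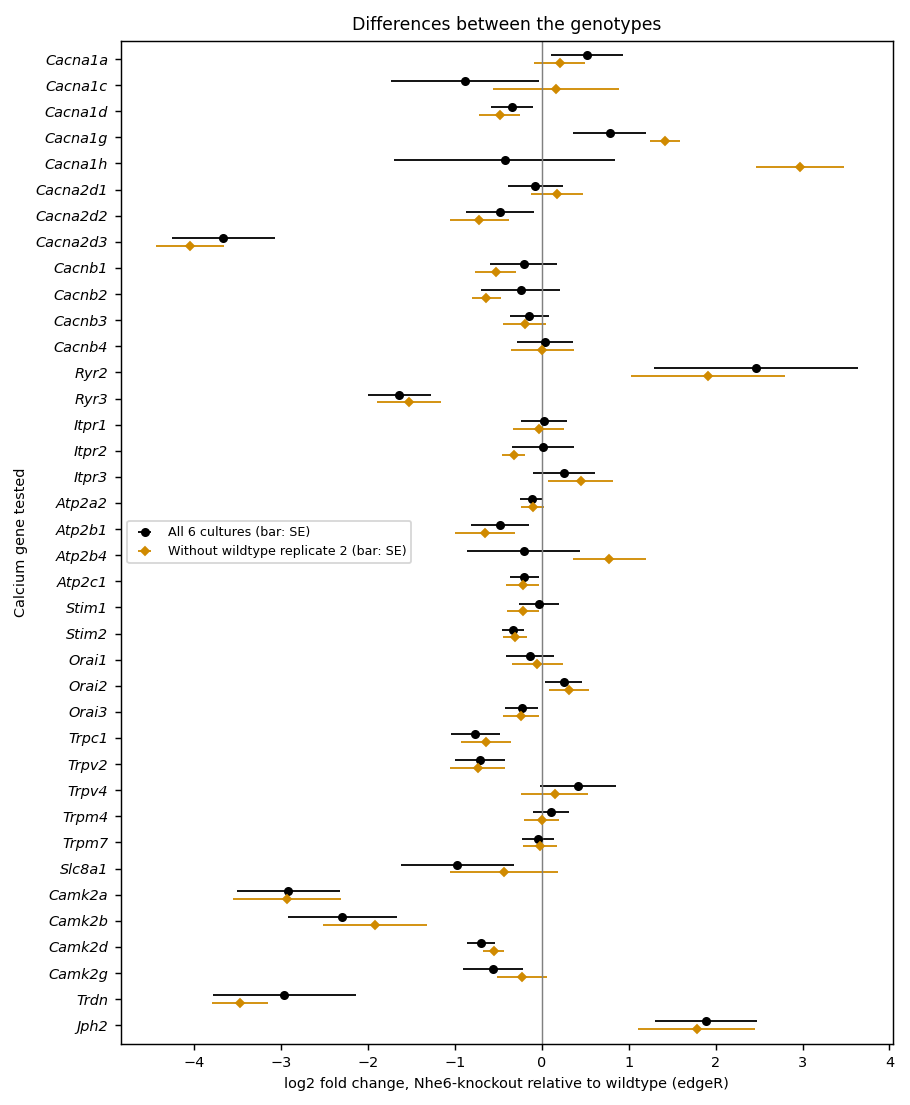
Log2 fold change of each of the 38 calcium genes tested, *Nhe6*-knockout relative to wildtype, with its SE. Black circles are the fit with all 6 cultures and orange diamonds the fit without wildtype replicate 2, which moves *Cacna1h* from −0.43 to 2.97 and *Cacna1g* from 0.78 to 1.42 and leaves *Cacna2d3* below −3.

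Among the 5 voltage-gated pores, the T-type pores *Cacna1g* and *Cacna1h*, which open at weak depolarisation, set wildtype replicate 2 apart from the other wildtype cultures. The pore *Cacna1c*, described below, did so too. *Cacna1g* had 684, 1983 and 793 normalized counts in wildtype and 1692, 2011 and 2234 in knockout cultures, so that only wildtype replicate 2 reached the knockout range. The log2 fold change was 0.78 (SE 0.42, adjusted p = 0.530), and 1.42 (SE 0.17, adjusted p = 0.0236) without that library. *Cacna1h* had 2.93, 141 and 6.42 normalized counts in wildtype and 36.1, 41.8 and 34.1 in knockout cultures. Its fold change was −0.43 (SE 1.27, adjusted p = 0.932) with all cultures and 2.97 (SE 0.51, adjusted p = 0.0435) without wildtype replicate 2, where 2 wildtype libraries of few reads remain. Of the transcripts of these 5 pores, *Cacna1g* made up 42.6% to 57.8% in wildtype and 69.2% to 71.8% in knockout cultures. With the N-type pore *Cacna1b*, which is outside the 43 genes, counted in, its share was 36.3% to 52.6% and 58.2% to 61.3%.

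*Cacna1c*, the L-type pore of smooth and cardiac muscle, had 171, 1680 and 628 normalized counts in wildtype and 235, 291 and 820 in knockout cultures. It was highest in wildtype replicate 2, the library with most *Acta2*, and the log2 fold change of −0.88 (SE 0.85, adjusted p = 0.751) was 0.16 without it. *Cacna1d*, the L-type pore of hair cells and endocrine cells, ranged from 563 to 813 in wildtype and from 392 to 639 in knockout cultures (−0.34, SE 0.24, adjusted p = 0.650). *Cacna1a*, the P/Q-type pore of nerve terminals, had 47.5 to 121 normalized counts in wildtype and 99.8 to 166 in knockout cultures. The groups overlapped for each of the 5 pores.

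*Cacna2d3* had the largest difference of all the calcium genes tested. It encodes an alpha2delta subunit, an extracellular partner that raises the surface level of voltage-gated channels, and lies at chr14:28904943-29721864 on the minus strand (GRCm38). Normalized counts were 767, 376 and 1725 in wildtype and 61.6, 70.6 and 93.7 in *Nhe6*-knockout cultures. The lowest wildtype culture, replicate 2, was still above the highest knockout culture, while the wildtype cultures differed widely among themselves (956 ± 694, SD, n = 3, against 75.3 ± 16.6). The level was 12.7-fold lower in knockout cultures (log2 fold change −3.66, SE 0.59, unadjusted p = 0.000645, adjusted p = 0.0952). DESeq2 gave an adjusted p of 4e-09 and edgeR without wildtype replicate 2 gave 0.0167 at a fold change of −4.05. The 14 alternatives gave fold changes from −4.05 to −2.93 with adjusted p values up to 0.471.

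Per length, *Cacna2d3* stood at 12.3, 6.51 and 30.2 TPM in wildtype and at 1.09, 1.24 and 1.72 TPM in knockout cultures, whereas *Cacna2d1*, the widespread alpha2delta subunit, stood at 16.3, 40.4 and 33.7 TPM and 27.3, 25.2 and 37.2 TPM. *Cacna2d1* normalized counts of 1441, 3324 and 2744 in wildtype and 2201, 2039 and 2882 in knockout cultures overlapped (−0.08, SE 0.32, adjusted p = 0.951). *Cacna2d3* accordingly made up 41.5%, 13.7% and 46.3% of alpha2delta transcripts in wildtype and 3.75%, 4.59% and 4.31% in knockout cultures. *Cacna2d2*, best known from the cerebellum, had 35.1 to 65.3 and 32.5 to 50.2 normalized counts in these groups.

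The 250 bases upstream of the RefSeq start are shown for *Cacna2d3* and for 2 CaM kinase II genes, the members with lower counts in every knockout culture and a DESeq2 call that have a promoter entry and no overlap with another gene's exons. Sequences are from RefSeq (GRCm38.p6), run 5′ to 3′ on the gene's strand, and carry GC boxes (GGGCGG on either strand) in capitals. Regions are chr14:29721865-29722114 minus strand, chr11:6065749-6065998 minus strand and chr3:126596701-126596950 plus strand.
*Cacna2d3*: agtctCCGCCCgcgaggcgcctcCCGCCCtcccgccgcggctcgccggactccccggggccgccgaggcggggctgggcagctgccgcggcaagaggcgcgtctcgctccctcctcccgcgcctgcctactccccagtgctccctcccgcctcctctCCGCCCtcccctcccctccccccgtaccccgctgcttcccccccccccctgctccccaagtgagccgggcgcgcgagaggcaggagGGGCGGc
*Camk2b*: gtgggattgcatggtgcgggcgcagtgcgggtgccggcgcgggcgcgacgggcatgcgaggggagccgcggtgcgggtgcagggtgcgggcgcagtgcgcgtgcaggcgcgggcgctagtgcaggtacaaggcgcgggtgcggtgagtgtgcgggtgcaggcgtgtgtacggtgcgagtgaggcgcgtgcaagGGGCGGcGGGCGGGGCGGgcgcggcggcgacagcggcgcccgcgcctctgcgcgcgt
*Camk2d*: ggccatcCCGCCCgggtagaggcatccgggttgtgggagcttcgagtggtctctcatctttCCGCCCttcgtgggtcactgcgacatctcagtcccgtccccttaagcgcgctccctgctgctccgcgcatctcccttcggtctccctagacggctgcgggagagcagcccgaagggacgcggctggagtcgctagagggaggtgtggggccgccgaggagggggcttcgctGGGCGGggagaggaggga
They hold 4, 3 and 3 GC boxes, a motif found in 32.7% of 32851 promoters of this length, and their GC content is 80.0%, 78.4% and 68.4% against a median of 52.4%. None holds TATAAA (12.4% of promoters) or the cAMP response element TGACGTCA (1.55%), and only that of *Cacna2d3* holds E-boxes (CANNTG), 2 of them, a motif found in 66.2% of promoters. In GENCODE, *Camk2b* begins 614 bases and *Camk2d* 649 bases farther upstream, so these windows belong to the RefSeq starts alone. Of the 43 genes, 32 had an entry.

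The beta subunits, which bind L-type, N-type and P/Q-type pores inside the cell and aid their transport to the membrane, had no member past the test. *Cacnb3*, the main one per length, had 1914, 1326 and 1051 normalized counts in wildtype and 1314, 1300 and 1272 in knockout cultures (−0.14, SE 0.22, adjusted p = 0.856). *Cacnb1*, *Cacnb2* and *Cacnb4* had fold changes of −0.21, −0.24 and 0.04 on the log2 scale with adjusted p values of 0.880, 0.880 and 0.974. *Cacnb1* and *Cacnb2* were lowest in wildtype replicate 2. The fold change of *Cacnb2* ran from −0.64 (adjusted p = 0.108) without that library to −0.0023 without wildtype replicate 1, and the groups overlapped for all 4.

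Ryanodine receptors release calcium from the reticulum in muscle and nerve, and their transcripts were rare in these cultures. *Ryr3*, the widely spread isoform (chr2:112631355-113217096, minus strand), had 61.6, 72.2 and 54.6 normalized counts in wildtype and 19.1, 26.0 and 15.1 in knockout cultures. All knockout cultures were lower, 3.11-fold on average (log2 fold change −1.64, SE 0.36, unadjusted p = 0.00324, adjusted p = 0.141, DESeq2 adjusted p = 0.00524). Its exons overlap *Aven* on the opposite strand, and whether the counting used strand is not given in the sources used here. *Aven* had 185 to 270 normalized counts in wildtype and 188 to 229 in knockout cultures (−0.20, adjusted p = 0.787).

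*Ryr2*, the cardiac isoform, had higher values in knockout cultures. Its normalized counts were 4.89, 1.03 and 52.4 in wildtype and 61.6, 111 and 150 in knockout cultures, so that the groups did not overlap but wildtype replicate 3 lay near knockout replicate 1. The log2 fold change of 2.46 (SE 1.17) had an adjusted p of 0.474, and it ran from 1.91 without wildtype replicate 2 to 5.10 without wildtype replicate 3. *Ryr2* made up 4.97%, 0.92% and 38.8% of ryanodine receptor transcripts in wildtype and 64.0%, 73.1% and 83.7% in knockout cultures, with *Ryr2* and *Ryr3* both under 1 TPM in every culture. Of 10 cardiac markers, *Nppa* had no read and 7 had no more than 10 reads in any library. *Tnnt2* reached 163, 7.22 and 56.7 normalized counts in wildtype and 8.5, 121 and 0.95 in knockout cultures. The summed list ranged from 85.7 to 213 in wildtype and from 48.9 to 163 in knockout cultures. The part of muscle-like cells in the *Ryr2* values was not tested.

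The IP3 receptors, the release channels opened by phospholipase C signalling, showed no difference past the test. *Itpr2* had 3050, 1320 and 3779 normalized counts in wildtype and 2790, 2818 and 2616 in knockout cultures (0.01, SE 0.36, adjusted p = 0.990). *Itpr3* ranged from 1220 to 2454 in wildtype and from 1412 to 2929 in knockout cultures (0.25, SE 0.36, adjusted p = 0.842), and *Itpr1* from 742 to 858 and from 531 to 1076 (0.03, SE 0.26, adjusted p = 0.976). By mean level per length, IP3 receptors stood at 6.75 TPM for *Itpr1*, 28.0 for *Itpr2* and 36.0 for *Itpr3*, where *Ryr2* and *Ryr3* stood at 0.34 and 0.33 TPM.

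All 4 CaM kinase II subunits had lower means in knockout cultures, and for 3 of them every knockout culture lay below every wildtype culture, as it did for 9.57% of all genes tested. *Camk2d*, the form found in most tissues (chr3:126596302-126846326, plus strand), had 6668, 8910 and 6688 normalized counts in wildtype and 4707, 4761 and 4222 in knockout cultures. The wildtype cultures spread more widely than the knockout cultures (7422 ± 1289 against 4564 ± 297, SD, n = 3). Relative to the mean, the spread was smaller in knockout cultures for 81.7% of all genes tested. The level was 1.63-fold lower in knockout cultures (log2 fold change −0.70, SE 0.16, unadjusted p = 0.00401, adjusted p = 0.156, DESeq2 adjusted p = 0.0133). Without wildtype replicate 2, its highest culture, the fold change was −0.55 with an adjusted p of 0.0699.

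*Camk2a* and *Camk2b*, the forms that predominate in neurons, were rare, and *Camk2a* passed the filter only through its wildtype counts. *Camk2a* had 28.4, 34.1 and 41.7 normalized counts in wildtype and 2.12, 8.36 and 2.84 in knockout cultures, 7.55-fold lower (−2.92, SE 0.59, unadjusted p = 0.00220, adjusted p = 0.119, DESeq2 adjusted p = 0.00255). *Camk2b* (chr11:5969644-6066362, minus strand) had 44.0, 80.5 and 39.6 against 11.7, 17.7 and 3.79 (−2.30, SE 0.63, unadjusted p = 0.00934, adjusted p = 0.227, DESeq2 adjusted p = 0.0204). *Camk2a* made up 0.07% to 0.94% and *Camk2b* 0.08% to 0.99% of the family's transcripts over the 6 cultures. *Camk2g*, the other abundant form, had 1569, 3060 and 1839 normalized counts in wildtype and 1157, 1155 and 2079 in knockout cultures. Knockout replicate 3 lay inside the wildtype range of *Camk2g* (−0.56, SE 0.34, adjusted p = 0.592). Among neuron and glia markers *Rbfox3* had no read, and the summed counts of the 10 markers were 561 to 867 in wildtype and 561 to 1024 in knockout cultures. Most of each sum was *S100b*, at 377 to 612 in wildtype and 349 to 696 in knockout cultures. The sum therefore cannot show differences in markers as rare as *Camk2a* and *Camk2b*.

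Triadin and junctophilin 2 hold the calcium release units of striated muscle together, and they differed in opposite directions. *Trdn* (chr10:33080554-33476709, plus strand) had 607, 68.1 and 610 normalized counts in wildtype and 57.4, 73.4 and 34.1 in knockout cultures. Wildtype replicates 1 and 3 stood far above all others, and wildtype replicate 2 lay within the knockout range. The log2 fold change was −2.96 (SE 0.82, unadjusted p = 0.0101, adjusted p = 0.238, DESeq2 adjusted p = 0.00211), and −3.47 (adjusted p = 0.0148) without wildtype replicate 2. *Jph2* had 16.6, 17.5 and 27.8 against 44.6, 45.5 and 140, so that all knockout cultures were higher, the third one most (1.89, SE 0.58, unadjusted p = 0.0163, adjusted p = 0.281, DESeq2 adjusted p = 0.0628).

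Skeletal muscle markers were scarce. *Ckm*, *Myf5*, *Myh8*, *Myod1*, *Myog* and *Pax7* had no read, 12 of 20 markers had at most 10 reads in every library, and the summed counts were 331 to 475 in wildtype and 379 to 442 in knockout cultures. *Mybpc1* had 59.7, 152 and 49.2 normalized counts in wildtype and 0, 2.79 and 0 in knockout cultures. *Actn2* had 92.9, 7.22 and 41.7 in wildtype and 12.7, 20.4 and 7.57 in knockout cultures, with wildtype replicates 1 and 3 above wildtype replicate 2 as for *Trdn*. *Des* had 51.8, 4.13 and 56.7 in wildtype and 167, 122 and 89.0 in knockout cultures, and *Actn3*, the marker with most counts, 110, 271 and 117 against 204, 178 and 271. The part of muscle-like cells in the *Trdn* values was not tested.

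**Figure D3:**
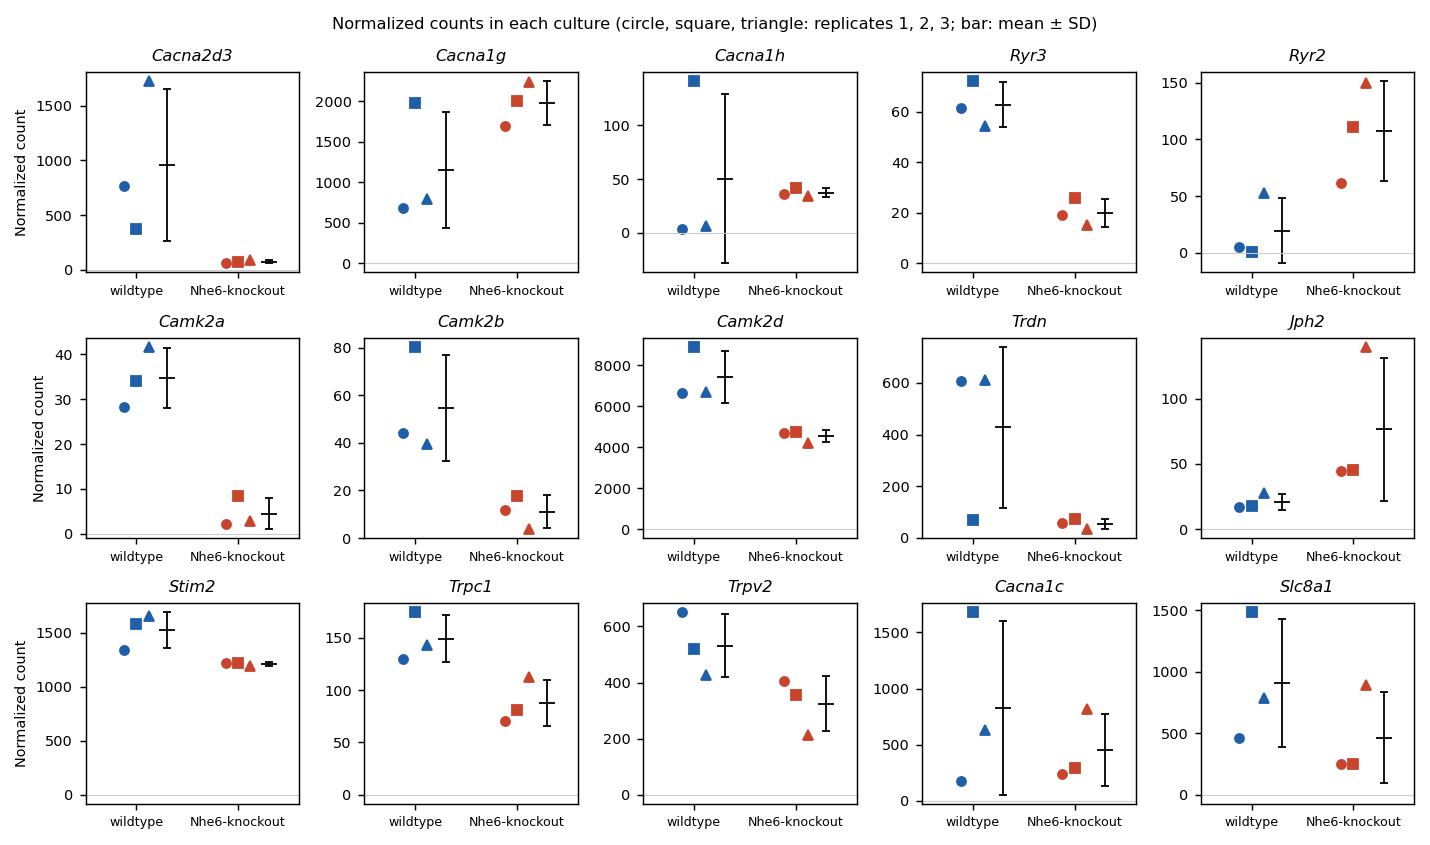
Normalized counts in each culture for the 10 calcium genes with an unadjusted p under 0.05 and for *Cacna1g*, *Cacna1h*, *Ryr2*, *Cacna1c* and *Slc8a1*. Blue is wildtype, red is *Nhe6*-knockout, circles, squares and triangles are replicates 1, 2 and 3, and the bar gives mean ± SD (n = 3). Wildtype replicate 2 lies apart from replicates 1 and 3 for *Cacna1g*, *Cacna1h*, *Cacna1c* and *Trdn*.

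Pumps and the exchanger, which clear calcium from the cytosol, included the most abundant transcript of the set. *Atp2a2* had 13157, 14683 and 15319 normalized counts in wildtype and 13469, 13010 and 13348 in knockout cultures, a difference of −0.12 on the log2 scale (SE 0.13, adjusted p = 0.799). *Atp2c1*, the secretory pathway pump of the Golgi, was also close between the groups (−0.20, SE 0.17, adjusted p = 0.716). *Atp2b1*, the main plasma membrane pump, had 6440, 7365 and 15310 in wildtype and 6784, 6715 and 7342 in knockout cultures. Wildtype replicate 3 alone was high, and the log2 fold change of −0.48 (SE 0.34, adjusted p = 0.648) was 0.0025 without it. *Atp2b4*, another plasma membrane pump, had 139, 688 and 209 against 204, 232 and 460, and its fold change moved from −0.21 to 0.78 without wildtype replicate 2.

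*Slc8a1*, the sodium-calcium exchanger of heart and smooth muscle, had 462, 1483 and 785 normalized counts in wildtype and 251, 245 and 893 in knockout cultures. The groups overlapped through knockout replicate 3 (−0.97, SE 0.65, adjusted p = 0.629). *Slc8a1*, *Cacna1c* and *Atp2b4*, like *Cacna2d1*, *Trpc1* and *Camk2g*, were each highest in wildtype replicate 2 and, among knockout cultures, in replicate 3. These are the cultures with most *Acta2*, at 16275 and 1204 normalized counts, and with most *Tagln*, at 5339 and 843, each within its genotype. The other markers did not share this order: of 14 smooth muscle and pericyte markers, wildtype replicate 2 was highest of the wildtype cultures for 5 and lowest for 8, and knockout replicate 3 highest of the knockout cultures for 9 and lowest for 4. *Col1a1*, a fibroblast marker, was as far apart in wildtype replicate 2, at 27187 normalized counts against 207 to 1228 in the other 5 cultures. The part of other cell types in the calcium genes with this order was not tested.

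Store-operated entry, in which Stim proteins sense the emptied reticulum and open Orai pores, differed little. *Stim2* had 1338, 1585 and 1651 normalized counts in wildtype and 1221, 1221 and 1191 in knockout cultures. Every knockout culture was lower, by a small amount (1525 ± 165 against 1211 ± 17.6, SD, n = 3), at a log2 fold change of −0.33 (SE 0.12, unadjusted p = 0.0333, adjusted p = 0.367). The spread relative to the mean was smaller in knockout cultures, as for 81.7% of all genes tested and 68.4% of the calcium genes tested. *Stim1* had 6359, 3600 and 4701 against 4973, 5309 and 4051 (−0.03, SE 0.23, adjusted p = 0.967). *Orai1*, *Orai2* and *Orai3* had log2 fold changes of −0.13, 0.25 and −0.23 with adjusted p values of 0.896, 0.715 and 0.694. *Orai3*, a pore subunit confined to mammals, made up 73.3% to 79.7% of Orai transcripts in the 6 cultures.

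Among the TRP channels, *Trpm7* had 5772, 7787 and 8920 normalized counts in wildtype and 7384, 7281 and 7159 in knockout cultures (−0.04, SE 0.18, adjusted p = 0.951). *Trpc1*, a cation channel linked to receptor-driven entry, had 130, 174 and 143 in wildtype and 70.1, 80.9 and 113 in knockout cultures. Every knockout culture was lower (−0.76, SE 0.29, unadjusted p = 0.0350, adjusted p = 0.372). The same held for *Trpv2*, a TRP channel found in endosomes and at the cell surface, with 650, 518 and 427 against 404, 355 and 214 (−0.71, SE 0.29, unadjusted p = 0.0450, adjusted p = 0.414). The gap between the groups was narrow, as wildtype replicate 3 and knockout replicate 1 differed by little. *Trpv4*, the channel of endothelial stretch and swelling responses, ranged from 29.9 to 79.2 in wildtype and from 58.4 to 82.7 in knockout cultures, and *Trpm4*, a channel for monovalent cations opened by calcium, from 496 to 726 and from 520 to 707, and both overlapped.

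Wildtype replicate 2 was the highest of the 6 cultures for 10 of the 38 calcium genes (26.3%, against 26.8% of all genes tested), the lowest for 8 (21.1%, against 26.5%) and between the others for 20. It was highest for *Cacna1c*, *Cacna1h*, *Cacna2d1*, *Ryr3*, *Atp2b4*, *Trpc1*, *Slc8a1*, *Camk2b*, *Camk2d* and *Camk2g*. For *Ryr3*, *Trpc1*, *Camk2b* and *Camk2d* the other wildtype cultures also lay above all knockout cultures, whereas for *Cacna1h* they lay below.

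**Figure D4:**
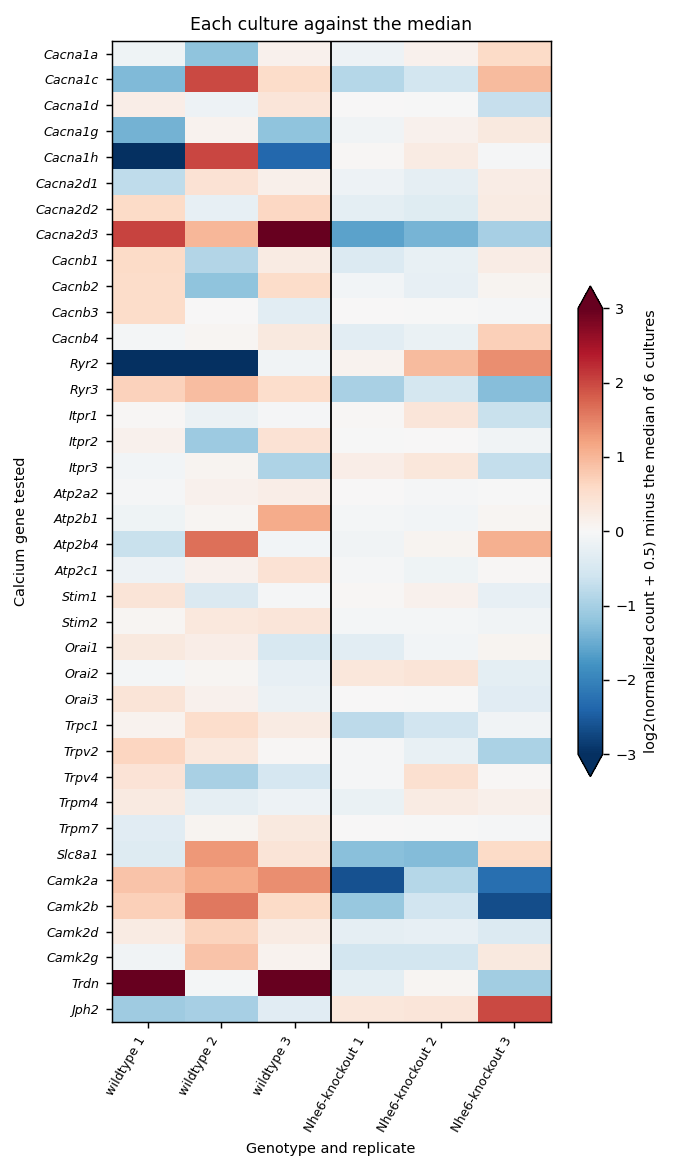
Each of the 38 calcium genes tested in each culture, as log2(normalized count + 0.5) minus the median of the 6 cultures, with colours ending at −3 and 3. *Cacna2d3*, *Ryr3*, *Camk2a* and *Camk2b* are above the median in the 3 wildtype and below it in the 3 knockout cultures, and wildtype replicate 2 differs from both other wildtype cultures for *Cacna1h* and *Trdn*.

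A further 138 calcium genes outside the 43 were followed in lists set by function, from auxiliary channel subunits and reticulum proteins to calcineurin and phospholipase C. These lists too were chosen with earlier results of these data known. Of the 100 tested, none passed an adjusted p of 0.05 in edgeR, 5 were lower and 4 higher at an unadjusted p under 0.05, and DESeq2 called 1, shares no higher than the 5.71%, 6.14% and 1.48% over all genes given above. Their median log2 fold change was −0.10. The DESeq2 call was *Camk1d*, a kinase activated by calmodulin (1134 ± 336 normalized counts in wildtype and 498 ± 33.2 in knockout cultures, SD, n = 3, −1.19, SE 0.24, adjusted p = 0.118, DESeq2 adjusted p = 0.0017).

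*Camk2n1*, an inhibitor of CaM kinase II, was lower as well (1478 ± 328 against 925 ± 94.5, −0.68, SE 0.20, adjusted p = 0.256), as was *Camk1* (−0.48, adjusted p = 0.216). *Sri*, which binds ryanodine receptors, and *Ppp3cc*, a calcineurin subunit, had values of −0.41 (adjusted p = 0.327) and −0.46 (adjusted p = 0.354). The 4 higher ones were *Ahcyl1*, a protein that competes with IP3 at its receptor (0.50, adjusted p = 0.275), *Cacng8* (2.94, adjusted p = 0.276), the N-type pore *Cacna1b* (0.94, adjusted p = 0.282) and the ATP-gated channel *P2rx7* (0.89, adjusted p = 0.352). *Pln* and *Sln*, the small inhibitors of SERCA in muscle, had no read. Without wildtype replicate 2, edgeR called 5 of these genes, *Camk2n1*, *Rcan2*, *Slc8a3* and *Mrln* (which passed the filter only there) lower and the stretch-activated channel *Piezo1* higher, where 1.26% of all genes were called lower and 1.62% higher.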

How the data were processed

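The authors' deposited table holds raw read counts per gene for 6 poly(A) libraries of a stranded kit. The submitters' notes name bcl2fastq 2.20.0.422, STAR 2.7.7a, HTSeq 0.13.5, DESeq2 1.26.0 and build mm10. The strand setting and annotation are not given in the sources used here. The 5 summary lines of the counter (22.2% of reads) were left out, and the check of the targeted gene is not reported here. Members and gene lists were chosen with earlier results of these data known.

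Counts were tested with edgeR 4.0.16 (R 4.3.3, TMM scaling, filterByExpr with a minimum count of 10, quasi-likelihood test, *Nhe6*-knockout against wildtype), and p-values were adjusted by Benjamini and Hochberg over 13479 genes at 0.05. Normalized counts are counts divided by the scaled library size. Fold changes are log2, with prior count 2 for library log values. Alternatives were DESeq2 1.42.0, limma 3.58.1 (voom), other scalings and filters, a replicate block and leaving out each library. Summing *Nhe6*-knockout replicates 1 and 2 was added after seeing the data. TPM used merged exon lengths of GENCODE M21 (GRCm38), to which 24062 genes (98.5%) and all 43 members matched. The test was checked on simulated counts. Genes given culture by culture are those with an unadjusted p under 0.05, those called by DESeq2 or without 1 library, and the member with most reads per role. *Cacna1c*, *Camk2g*, *Atp2b1* and *Atp2b4* were added after their values were seen. From the other calcium genes, DESeq2 calls and up to 5 per direction with the smallest p are named.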

Additional observations from a re-analysis of the deposited data

How the results depend on the processing

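Over all genes tested, edgeR passed 9 genes. This became 21 without a filter beyond 1 count, 21 with at least 10 counts in every library, 593 with DESeq2, 2 with the replicate block, 1 with *Nhe6*-knockout replicates 1 and 2 summed, and 0 to 395 when 1 library was left out, the highest without wildtype replicate 2. For the calcium genes 0 became 6 with DESeq2 and 0 to 4 when 1 library was left out, and for the other calcium genes 0 became 1 and 0 to 5. The mean summed TPM of 1146 became 1308 with the longest transcript as length. Replicate numbers did not pair the samples (correlations of deviations 0.207, −0.189 and 0.111), and the block called none of the calcium genes.

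Of the 38 calcium genes, 23 kept the direction of their fold change in every alternative, *Cacna2d3*, *Ryr2*, *Ryr3*, *Camk2a*, *Camk2b*, *Camk2d*, *Trdn* and *Jph2* among them. The other 15 reversed at least once. Limma-voom and the replicate block gave log2 fold changes of 1.35 and 1.32 for *Cacna1h*, −0.021 and −0.032 for *Cacnb4*, −0.032 and −0.029 for *Itpr1*, and 0.062 and 0.069 for *Atp2b4*. *Itpr2* was −0.0052 without a filter beyond 1 count. With the *Nhe6*-knockout replicates summed, *Itpr1* was −0.10 and *Itpr2* −0.0040. Leaving out 1 library gave these ranges: −1.66 to 0.16 for *Cacna1c*, −0.99 to 2.97 for *Cacna1h*, −0.36 to 0.18 for *Cacna2d1*, −0.53 to 0.097 for *Cacnb1*, −0.33 to 0.12 for *Cacnb3*, −0.37 to 0.21 for *Cacnb4*, −0.21 to 0.25 for *Itpr1*, −0.32 to 0.32 for *Itpr2*, −0.0028 to 0.50 for *Itpr3*, −0.71 to 0.0025 for *Atp2b1*, −0.67 to 0.78 for *Atp2b4*, −0.22 to 0.20 for *Stim1*, −0.34 to 0.0065 for *Orai1*, −0.0024 to 0.29 for *Trpm4* and −0.21 to 0.095 for *Trpm7*. The cause of these moves was not tested. Depth limits *Ryr2*, *Ryr3*, *Camk2a*, *Camk2b*, *Cacna1h* and *Jph2*, which rest on at most 158 reads per library.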
